A study of Arabidopsis thaliana with 12 samples.

Results

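The comparison described here set ap1/cal against Col-0 under SNP, that is, the genotype difference in seedlings that had all received the nitric oxide donor. The 3 ap1/cal SNP libraries and the 3 Col-0 SNP libraries were taken, 6 of the 12 libraries of the series, and their values were rescaled together. Genes in both deposited tables were kept if 3 or more of the 6 libraries reached a value of 10, which left 19571 of the 22054 genes in either table. All plants were Arabidopsis thaliana seedlings, 7 days after germination, grown at 21 °C in long days on plates of 1/2 MS medium. The SNP plates held 1 mM sodium nitroprusside (SNP) for 24 h, and the Mock plates held none. Col-0 is the wild type, and ap1/cal carries mutations in APETALA1 (AP1) and CAULIFLOWER (CAL) in that background. The alleles are not given in the labels. The study's methods call the 3 replicates of a condition biological, but do not say how plants were pooled or grown apart, so each p-value measures the spread between these libraries.

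AP1 and CAL encode MADS-box transcription factors that specify the identity of the floral meristem, and the double mutant forms proliferating meristems in place of flowers. Sodium nitroprusside releases nitric oxide, and it also holds iron and cyanide groups. Nitric oxide inhibits mitochondrial respiration and modifies proteins on cysteine residues, and plant cells that carry damaged proteins induce heat shock proteins, which are chaperones that hold, refold or disaggregate them. Heat shock transcription factors (HSFs) switch those genes on by binding heat shock elements in their promoters. A separate mitochondrial retrograde response raises alternative oxidase and other nuclear genes when respiration is impaired.

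The labels could not be checked through the mutated genes. AP1 is in neither table, and CAL is only in the ap1/cal table, at 7.18, 8.28 and 3.84 under SNP. Markers of the labelled tissue were present, since all 21 light-harvesting and Rubisco small subunit genes of a fixed list were tested. The estimated depth was 22.5 to 45.4 M reads in Col-0 and 23.7 to 43.1 M reads in ap1/cal under SNP, so that 3 reads correspond to a value of 2.47 to 5.83, the floor used below. After rescaling the values summed to 36.4 to 38.7 M in Col-0 and to 44.4 to 46.2 M in ap1/cal. The library ap1/cal SNP replicate 1 stood apart in its share of organelle transcripts, and list counts that moved by over 1.5 times without it are given. In whole seedlings, fewer cells of a type and less RNA per cell cannot be told apart.

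Promoters of 4 genes that the results turn on are shown first, because a promoter element is known for heat shock genes and another for mitochondrial response genes. These 4 windows all hold a match, whereas those of HSP18.2, HSP101, HSP70 and AOX1A, also called higher, hold none. Each line gives the 250 bases before the gene start in the RefSeq TAIR10.1 annotation, read 5′ to 3′ on the strand of the gene, with the motif match in capitals. For HSP17.4 (chr3:16984868-16985117, minus strand), AT1G53540 (chr1:19980049-19980298, plus strand) and HSFA2 (chr2:11135374-11135623, plus strand) the capitals mark TTCNNGAA, the core of a heat shock element. For AT2G21640 (chr2:9254128-9254377, plus strand) they mark the mitochondrial dysfunction motif bound by NAC transcription factors, searched as CTTG, 5 bases of any kind, CA, 1 base of any kind and G.
HSP17.4: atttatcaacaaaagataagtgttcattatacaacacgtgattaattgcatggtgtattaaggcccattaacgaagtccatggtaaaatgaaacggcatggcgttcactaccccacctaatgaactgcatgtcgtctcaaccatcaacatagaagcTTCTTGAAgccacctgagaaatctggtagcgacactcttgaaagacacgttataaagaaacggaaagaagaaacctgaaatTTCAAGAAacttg
AT1G53540: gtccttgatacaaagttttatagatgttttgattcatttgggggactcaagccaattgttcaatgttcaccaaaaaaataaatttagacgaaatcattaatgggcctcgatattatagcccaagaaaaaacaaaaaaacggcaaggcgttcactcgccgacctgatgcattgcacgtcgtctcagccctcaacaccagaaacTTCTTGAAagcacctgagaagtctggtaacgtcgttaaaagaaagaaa
HSFA2: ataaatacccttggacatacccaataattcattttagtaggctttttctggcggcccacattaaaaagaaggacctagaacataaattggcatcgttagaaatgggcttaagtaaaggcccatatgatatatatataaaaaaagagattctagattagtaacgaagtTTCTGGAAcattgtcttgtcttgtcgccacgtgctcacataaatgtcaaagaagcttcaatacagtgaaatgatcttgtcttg
AT2G21640: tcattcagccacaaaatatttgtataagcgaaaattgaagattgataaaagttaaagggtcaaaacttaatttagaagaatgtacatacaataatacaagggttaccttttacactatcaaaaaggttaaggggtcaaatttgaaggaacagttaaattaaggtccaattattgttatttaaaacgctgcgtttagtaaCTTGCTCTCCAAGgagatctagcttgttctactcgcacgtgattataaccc

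Both strands were searched in the windows of 19436 tested nuclear genes. TTCNNGAA was present in 1482 of them (7.63%), in 144 of 1498 genes called higher in ap1/cal under SNP (9.61%) and in 124 of 1769 called lower (7.01%). Among the gene lists it was present in 5 of 15 small heat shock protein genes, 2 of 22 genes of larger heat shock proteins and co-chaperones, and 4 of 18 HSF genes. The longer element of GAA, TTC and GAA with 2 bases of any kind between the units, which contains the core, was present in 82 windows (0.422%), in 21 of those called higher (1.4%) and in 7 of those called lower (0.396%). It was present before HSP17.4, AT1G53540 and HSFA2 among others. The mitochondrial dysfunction motif was present in 282 windows (1.45%), in 50 called higher (3.34%) and 26 called lower (1.47%), and in 5 of the 19 mitochondrial response genes. It was also present in 4 of the 15 small heat shock protein genes. TTCNNGAA in turn was present in 4 of the 19 mitochondrial response genes and in 4 of 14 clock genes. Neither motif was particular to its own list. A match is a description of the letters, not a binding site.

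Under SNP, 3387 of 19571 genes were called, or 17.3%, with 1618 higher in ap1/cal (8.27%) and 1769 lower (9.04%). A call required a Benjamini-Hochberg adjusted p below 0.05 in limma and a fold of at least 1.5, on the log2(value + 1) scale on which all fold changes are given. Rose and fell mean here that a gene was higher or lower in ap1/cal than in Col-0 under the same treatment, not that it responded to SNP. Of the called genes 1286 differed at least 2-fold and 184 at least 4-fold. The values of the 3 libraries of one genotype did not overlap those of the other in 53.3% of all genes tested, in 1596 of the genes called higher and in 1730 of those called lower. Scaling each library to its total, rather than to the median ratio, moved the median of all genes from -0.02 to -0.29 and gave 764 higher and 4286 lower calls. Upper-quartile scaling gave 1161 and 2580. Fold changes below are therefore relative to a median of -0.02. Under total scaling the medians of 7 lists went from positive to negative, to -0.08 for HSFs, -0.11 for proteasome subunits, -0.20 for RNA-directed DNA methylation, -0.07 for nitric oxide genes, -0.07 for light harvesting, -0.27 for iron and -0.21 for cyanide detoxification, all above the -0.29 of all genes.

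**Figure D1:**
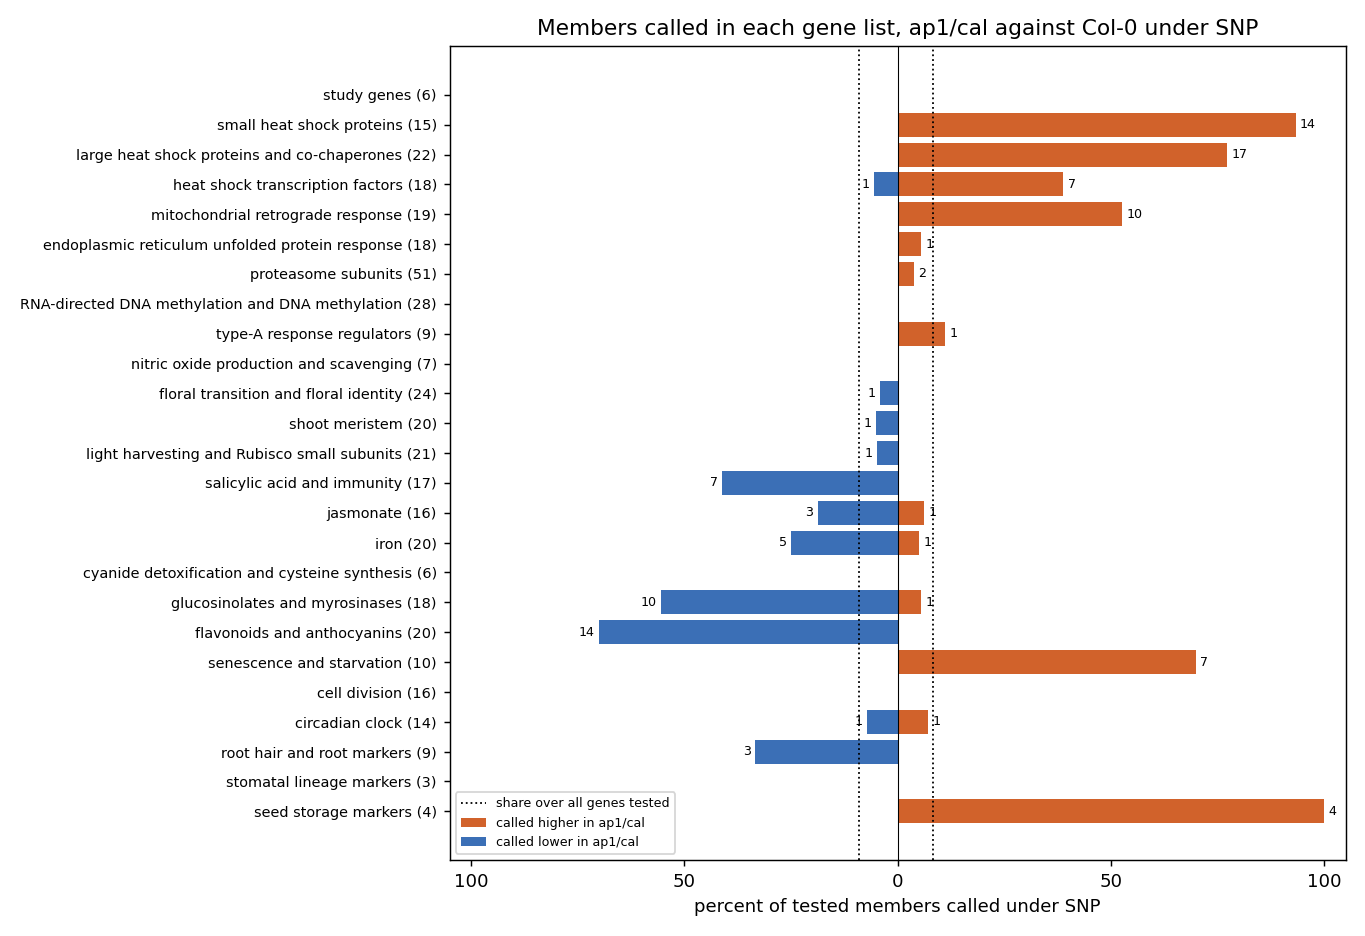
Percent of the tested members of each gene list called higher (right) or lower (left) in ap1/cal than in Col-0 under SNP, with the number of called members at the end of each bar and the number tested in brackets. Dotted lines mark the shares over all genes tested, 8.27% higher and 9.04% lower. The heat shock, mitochondrial and senescence lists extend to the right, and the flavonoid, glucosinolate and salicylic acid lists to the left.

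Small heat shock proteins, which bind unfolding proteins before other chaperones act, were called higher in nearly all cases. Of 15 members 14 rose in ap1/cal under SNP and none fell, with a median log2 fold change of 1.5 against -0.02 for all genes. HSP18.2, a cytosolic class I protein, stood at 9488, 9286 and 6615 in Col-0 and at 37675, 59110 and 40266 in ap1/cal. The lowest ap1/cal library lay far above the highest Col-0 library, and the log2 fold change was 2.42 ± 0.18 (SE, adjusted p = 2.97e-05). HSP17.4, whose promoter is shown above, stood at 32218, 32946 and 26045 against 74530, 93914 and 75651 (1.42 ± 0.12), but 58.3% of its 75-base windows are shared with other genes and its reads are uncertain. AT1G52560 stood at 4768, 4978 and 3988 in Col-0 and at 16053, 23491 and 15821 in ap1/cal, a rise of 1.99 ± 0.14. Its groups did not overlap either, and it encodes an HSP20-like chaperone.

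The members of this list sit in different compartments, and each compartment was represented among the calls. ATHSP22.0, of the endoplasmic reticulum, had values of 9900, 9655 and 7145 in Col-0 and 26479, 39250 and 27083 in ap1/cal, with a log2 fold change of 1.79 ± 0.16. HSP23.6-MITO, in mitochondria, had values of 28161, 29560 and 21278 against 73234, 100312 and 84829, with a change of 1.71 ± 0.14. In chloroplasts HSP21 stood at 4418, 4186 and 3109 against 11072, 15477 and 10438, a change of 1.65 ± 0.16. In all of them the 3 ap1/cal libraries were above the 3 Col-0 libraries, and replicate 2 was the highest ap1/cal library. The cytosolic class II pair HSP17.6II and HSP17.6A rose by 1.17 ± 0.11 and 1.19 ± 0.11. The single member not called was AT4G21870, at 1866, 1543 and 1927 in Col-0 and 1715, 1578 and 1451 in ap1/cal (-0.17 ± 0.10), with overlapping groups.

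The direction was the opposite in Mock. There, 206 of 20042 genes were called (1.03%), and of the 14 small heat shock protein genes tested 7 were lower in ap1/cal and none was higher, with a median of -2.89. Among these, HSP21 stood at 71.3, 34.8 and 42.6 in Col-0 against 4.47, 2.22 and 6.83 in ap1/cal. It passed the Mock filter through Col-0 alone, so its Mock call is not independent of the filter. AT1G53540, an HSP20-like chaperone, stood there at 1224, 340 and 640 in the wild type against 43.2, 20 and 51.7 in the mutant, which is 4.14 ± 0.46 lower on the log2 scale (adjusted p = 0.00532). Under SNP the same gene stood at 33898, 34050 and 26507 in Col-0 and at 93052, 118072 and 88547 in ap1/cal, which is 1.66 ± 0.13 higher (adjusted p = 3.42e-05). The groups did not overlap in either treatment and their order was reversed between them. The difference of the genotype differences, tested over all 12 libraries, was 5.83 ± 0.56 for this gene, and it was called more positive under SNP for 14 of the 15 members. In that test 14.6% of all genes were called, 7.94% more positive and 6.64% more negative. Col-0 Mock replicate 1 was the highest Mock library for 12 of the 15 genes, and without it 7 of 12 tested members were lower, with a median of -1.84.

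**Figure D2:**
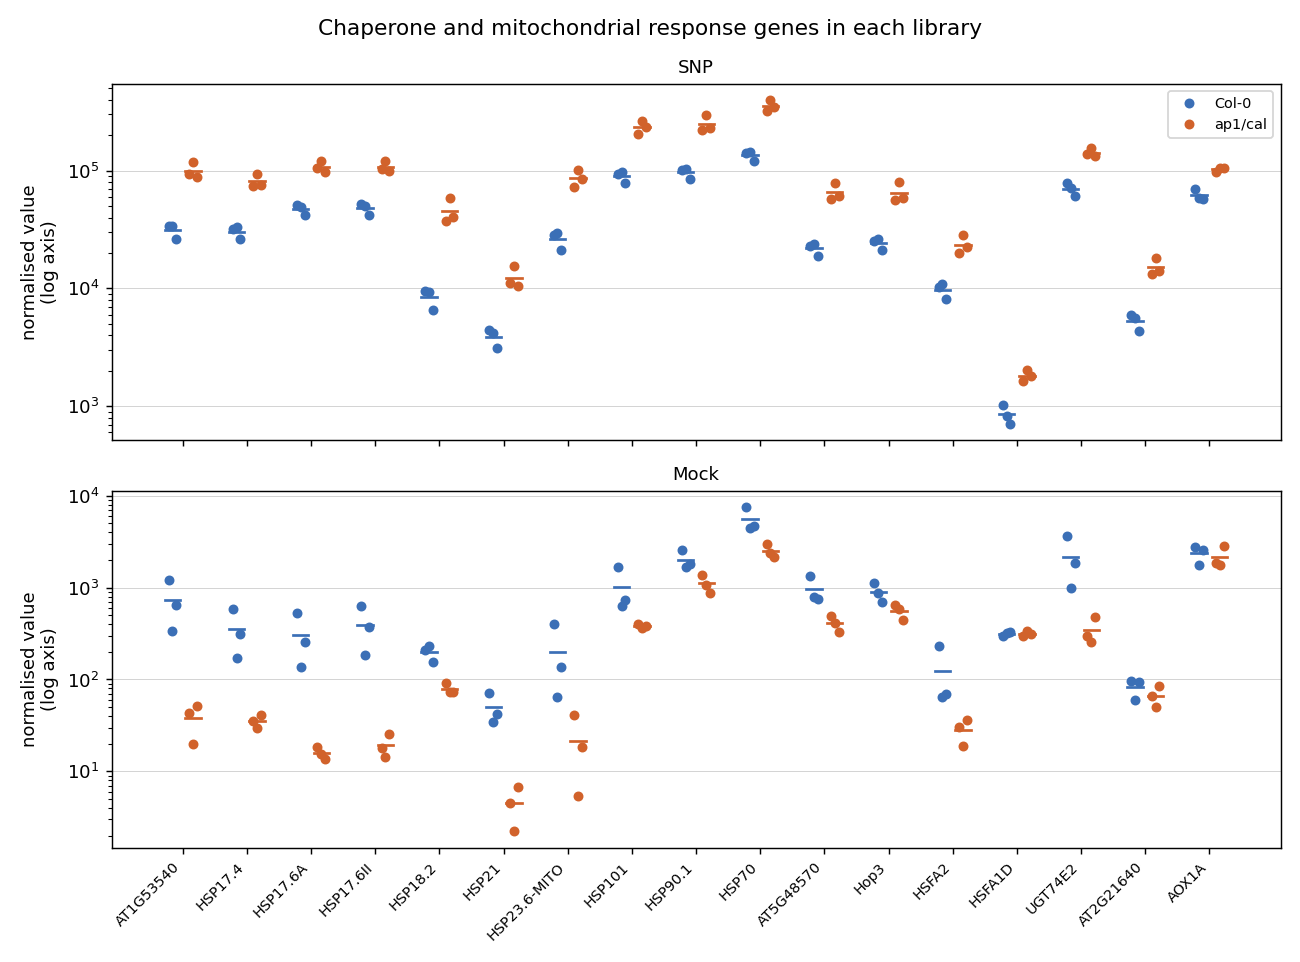
Normalised values (log axis) of 17 chaperone, HSF and mitochondrial response genes in each SNP library (top) and each Mock library (bottom), points being libraries and bars the means of 3. Under SNP the ap1/cal points lie above the Col-0 points for every gene shown, whereas in Mock they lie below for 14 of the 17 genes and overlap for HSFA1D, AT2G21640 and AOX1A.

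The larger chaperones and their partners moved in the same direction by smaller steps. Of 22 members 17 rose under SNP and none fell, with a median of 1.00, and the difference from Mock was called for 20, all more positive under SNP. HSP101, the cytosolic disaggregase needed for acquired thermotolerance, stood at 93819, 97196 and 78515 in Col-0 and at 203969, 264609 and 233437 in ap1/cal (1.38 ± 0.12, adjusted p = 4.67e-05). HSP70 stood at 142236, 144641 and 121459 against 322775, 398815 and 344739 (1.38 ± 0.12). HSP90.1, the heat-inducible cytosolic HSP90, stood at 101223, 103676 and 84453 against 219668, 296595 and 229309 (1.36 ± 0.13). The groups of these genes were separated by more than the whole range of either.

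Co-chaperones that pass clients between HSP70 and HSP90 were among the calls. Hop3 stood at 25505, 26276 and 21058 in Col-0 and at 56807, 79342 and 58721 in ap1/cal (1.41 ± 0.13). The FKBP-type isomerase AT5G48570 stood at 22867, 23995 and 18844 against 57687, 78824 and 60776 (1.58 ± 0.13). Fes1A, which protects HSP70 from degradation, rose by 1.28 ± 0.11, the ubiquitin ligase CHIP by 0.92 ± 0.07, and the organelle disaggregases CLPB3 (chloroplast) and CLPB4 (mitochondria) by 1.00 ± 0.13 and 1.05 ± 0.13. Members with smaller estimates included HSC70-1, Hop1 and Hsp81.4. HSC70-1 stood at 41053, 43126 and 40744 against 59299, 60574 and 61160 (0.54 ± 0.07) and was under the fold threshold, and Hop1 and Hsp81.4 had values of -0.26 ± 0.10 and -0.08 ± 0.09 with overlapping groups. In Mock 2 of the 22 were called, HSP70 and AT5G48570, both lower in ap1/cal, and 5 were lower without Col-0 Mock replicate 1.

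Of the HSF family 18 genes were tested, of which 7 rose and 1 fell, with a median of 0.19 that turned to -0.08 under total scaling, where 6 rose and 4 fell. HSFA2, a heat-induced activator, stood at 10244, 10843 and 8184 in Col-0 and at 20158, 28153 and 22374 in ap1/cal (1.27 ± 0.13, adjusted p = 8.91e-05). HSFA1D, one of the master activators that act before HSFA2, stood at 1021, 834 and 708 against 1644, 2033 and 1791 (1.1 ± 0.13). HSF4 stood at 8873, 8381 and 7151 against 15506, 19506 and 17154 (1.1 ± 0.10). For all of them the ap1/cal libraries were the highest 3 of the 6. The other master activators were not called, with HSFA1E at 0.45 ± 0.14, HSF1 at -0.39 ± 0.17 and HSF3 at -0.41 ± 0.11. HSFC1 fell by 0.86 ± 0.14, from 202, 197 and 198 to 100, 132 and 99.2, and its reads can belong to the overlapping antisense gene AT3G24518. AT-HSFA7B was low, at 50, 29.7 and 26.3 against 82.5, 106 and 62.2 (1.24 ± 0.29). In Mock no HSF gene was called.

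Chaperones of the endoplasmic reticulum and subunits of the proteasome, which also handle damaged proteins, mostly stayed below the threshold. Of 18 genes of the unfolded protein response of the endoplasmic reticulum 1 rose and none fell (median -0.09), while 1 rose and 3 fell under total scaling and 2 rose without ap1/cal SNP replicate 1. It was ATERDJ3A, a DnaJ co-chaperone, at 7891, 7712 and 6593 in Col-0 and 13838, 16852 and 15081 in ap1/cal (1.04 ± 0.09). The main lumenal HSP70 genes BIP1 and BIP2 differed in opposite directions, at 0.31 ± 0.06 and -0.31 ± 0.07, both under the 1.5-fold threshold. Of 51 proteasome subunits 2 rose and none fell (median 0.17), ATS9 by 0.91 ± 0.09 and RPT3 by 0.62 ± 0.07, and RPT3 was not called under total scaling, where 1 subunit rose and 1 fell.

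Genes of the mitochondrial retrograde response rose in 10 of 19 cases, with none lower and a median of 0.64. Under total scaling 6 rose and 1 fell, and without ap1/cal SNP replicate 1 the counts were 11 and 1. AOX1A, the main stress-induced alternative oxidase, stood at 70353, 58750 and 57448 in Col-0 and at 96419, 104768 and 105638 in ap1/cal (0.72 ± 0.10, adjusted p = 0.000369). AT2G21640, whose promoter is shown above, stood at 6000, 5584 and 4337 against 13257, 18035 and 13965 (1.51 ± 0.14). UGT74E2, a glucosyltransferase of the auxin indole-3-butyric acid, stood at 79085, 71232 and 60496 against 137307, 156045 and 133633 (1.02 ± 0.11). Each of these was separated without overlap. AT5G09570, a Cox19-like protein, was lower in abundance and more spread, at 159, 134 and 125 against 324, 725 and 519 (1.83 ± 0.24).

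Among the regulators of this response, NAC13 rose by 0.91 ± 0.10 and NAC2 by 0.90 ± 0.08, while NAC017, a factor released from the endoplasmic reticulum membrane, stood at 1149, 1015 and 1147 against 1121, 972 and 1200 (-0.01 ± 0.09) with fully overlapping groups. BCS1, an AAA ATPase gene of the list, had lower values in ap1/cal, 2995, 2636 and 2563 against 4412, 3537 and 3818, under the fold threshold (-0.52 ± 0.09). In Mock 2 of the 16 members tested in both treatments were called, UGT74E2 and GSTU24, both lower in ap1/cal. UGT74E2 stood there at 3620, 999 and 1850 in Col-0 and at 296, 258 and 474 in ap1/cal. The difference from Mock was called for 12 members, all more positive under SNP, and for AOX1D it was 4.37 ± 0.75. AOX1D, a second alternative oxidase, stood at 2376, 2152 and 1562 against 3116, 4184 and 4543 under SNP (0.96 ± 0.17) and at 55.4, 6.58 and 18.9 against 0.745, 0.444 and 1.95 in Mock, where the ap1/cal values were under the floor.

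Genes of senescence and carbon starvation rose in 7 of 10 cases and none fell, with a median of 0.67, but under total scaling 2 rose and 1 fell. ASN1, a dark-induced asparagine synthetase, stood at 3137, 4670 and 4182 in Col-0 and at 11579, 6045 and 9755 in ap1/cal (1.16 ± 0.21, adjusted p = 0.00207). NAP, a NAC factor that promotes leaf senescence, stood at 319, 272 and 232 against 550, 483 and 545 (0.95 ± 0.12). The chlorophyll breakdown enzymes ACD1 and PPH rose by 0.65 ± 0.06 and 0.67 ± 0.06, and ACD1 shares sequence with an overlapping gene. DIN2, a dark-inducible beta-glucosidase, stood at 15134, 16347 and 13076 against 25252, 26385 and 26239 (0.81 ± 0.09), and it lost its call under total scaling. Groups did not overlap for any of them, and no member was called in Mock.

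The smallest p-values on the higher side belonged to AT1G66180, ATG8E, WIH1, ACX2 and AT3G15770, none of them in a list. The autophagy protein gene ATG8E stood at 4994, 4517 and 4212 in Col-0 and at 11080, 12268 and 11792 in ap1/cal (1.36 ± 0.08, adjusted p = 2.81e-05). The peroxisomal acyl-CoA oxidase gene ACX2 stood at 5532, 5442 and 4847 against 12253, 12756 and 11412 (1.2 ± 0.07, the same adjusted p). AT1G66180, an aspartyl protease gene, stood at 1010, 1154 and 1214 against 4247, 5655 and 4960 (2.13 ± 0.11). The replicates of each genotype lay close together in all of these, and the groups did not overlap, which a choice by smallest p-value favours. WIH1, a small stress tolerance protein, rose by 1.28 ± 0.08 and overlaps AT5G67590 on the other strand.

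Transcripts of the chloroplast and mitochondrial genomes were higher in ap1/cal almost throughout. Of 79 chloroplast-genome loci 75 rose and none fell (94.9%, median 1.97), and of 55 mitochondrial-genome loci 45 rose and none fell (81.8%, median 1.19). A block of chromosome 2 that carries mitochondrial sequence (locus numbers beginning AT2G07) followed, with 27 of 48 higher (56.2%, median 0.99). The summed chloroplast values were 329456, 393370 and 279949 in Col-0 and 633748, 1109660 and 1222920 in ap1/cal, or 0.769% to 1.05% and 1.43% to 2.65% of each library. The ap1/cal libraries were all above the Col-0 libraries, but replicate 1 lay nearer to Col-0 than to replicates 2 and 3, and it was also the deepest ap1/cal library (43.1 M estimated reads against 27 M and 23.7 M). In Mock the chloroplast share also varied within a genotype, from 1.54% to 3.45% in ap1/cal and from 1.29% to 2.18% in Col-0. The loci of a genome are read from the same libraries and moved with this share, so their number is not a number of separate results. The libraries were made from poly(A) RNA. The parts of this selection and of depth in the difference were not tested.

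ATCG00120 had the largest change of the chloroplast loci, at 4379, 4491 and 2597 in Col-0 and at 16196, 43943 and 51718 in ap1/cal (3.16 ± 0.37, adjusted p = 0.000163). Without ap1/cal SNP replicate 1 the chloroplast median was 2.33 and 76 loci rose, and over all removals of 1 library it ranged from 1.70 to 2.33, with 34 to 44 mitochondrial loci higher. In Mock no organelle locus was called, at medians of 0.74 and 0.65. The difference from Mock was called for 8 chloroplast loci and 1 mitochondrial locus. The nuclear genes for photosynthesis did not share this rise, since of 21 light-harvesting and Rubisco small subunit genes none rose and 1 fell (median 0.21, and -0.07 under total scaling). The one that fell was RBCS1B, from 36884, 36260 and 41072 to 29545, 18309 and 28055 (-0.62 ± 0.16). Leaving both organelle genomes out, 1498 of 19437 genes were called higher and 1769 lower.

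**Figure D3:**
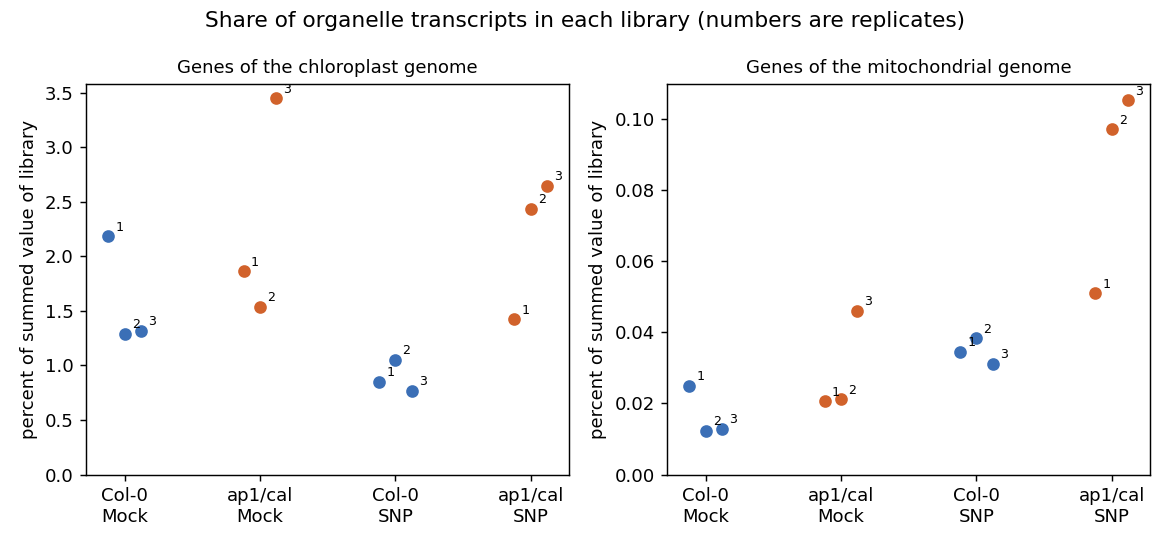
Share of the summed value of each library that fell on genes of the chloroplast genome (left) and the mitochondrial genome (right), in percent, by group, with the replicate number beside each point. Under SNP all ap1/cal libraries lie above all Col-0 libraries, replicate 1 least (1.43% chloroplast against 2.44% and 2.65%), while in Mock ap1/cal replicate 3 and Col-0 replicate 1 stand out of their groups.

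Many glucosinolate genes were lower in both treatments. Aliphatic glucosinolates, sulphur-containing defence compounds, are made from methionine through chain elongation and a core pathway, and 10 of the 18 tested genes of glucosinolate synthesis and breakdown fell while 1 rose (median -0.83). Of these 18 genes 9 were also lower in Mock and 2 higher (median -0.77). In the chain elongation steps, BCAT4 stood at 117, 229 and 184 in Col-0 and at 15.5, 28.7 and 9.72 in ap1/cal (-3.30 ± 0.37, adjusted p = 0.000123), and it overlaps a gene on the other strand. MAM1, the condensing enzyme, stood at 939, 1476 and 916 against 178, 327 and 164 (-2.35 ± 0.25). The isomerase subunits IPMI1 and IPMI2 were lower by 2.45 ± 0.21 and 2.26 ± 0.17 on the log2 scale. In each of them every ap1/cal library lay below every Col-0 library.

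In the core pathway, CYP79F1, which converts the elongated amino acids into aldoximes, stood at 112, 237 and 190 in Col-0 and at 7.60, 18.9 and 14.5 in ap1/cal (-3.64 ± 0.36, adjusted p = 6.34e-05). CYP83A1, the next enzyme, stood at 68.9, 161 and 142 against 21.7, 40.6 and 23.3 (-2.05 ± 0.34). SOT18, a sulfotransferase of the last core step, stood at 190, 305 and 259 against 103, 157 and 121 (-0.97 ± 0.20). Col-0 replicate 1 was the lowest Col-0 library for these 3 genes and still above all ap1/cal libraries. The side-chain oxygenases FMO GS-OX1 and FMO GS-OX3 fell by 1.41 ± 0.21 and 1.69 ± 0.24. In Mock CYP79F1 had stood at 1315, 2108 and 1293 in Col-0 and at 326, 268 and 223 in ap1/cal (-2.50 ± 0.20), and the difference between the treatments was not called for it (-1.11 ± 0.45, adjusted p = 0.089).

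The regulators of these enzymes were not called, but their standard errors were too large to exclude a 1.5-fold fall. MYB28, the main activator of aliphatic glucosinolate genes, stood at 56.8, 146 and 91.5 in Col-0 and at 100, 106 and 69.8 in ap1/cal (-0.01 ± 0.31), and MYB29 at 8.62, 33.8 and 22.9 against 16.5, 28.7 and 9.72 (-0.17 ± 0.53), both with overlapping groups. On the breakdown side the myrosinase TGG2 rose, from 763, 829 and 692 to 1337, 1237 and 1231 (0.74 ± 0.09), and the specifier protein ESP fell, from 180, 184 and 177 to 108, 122 and 107 (-0.68 ± 0.13). Both had the same sign in Mock. Under total scaling TGG2 was not called and 13 of the 18 genes fell.

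Flavonoid and anthocyanin genes were lower in ap1/cal than in Col-0 under SNP in 14 of 20 cases, none was higher, and the median was -0.89. The late enzymes of anthocyanin synthesis were lower in both treatments. DFR stood at 1356, 1929 and 1853 in Col-0 and at 759, 997 and 807 in ap1/cal (-1.0 ± 0.14, adjusted p = 0.000458), and in Mock at 150, 219 and 93.9 against 43.2, 53.2 and 31.2 (-1.78 ± 0.30). LDOX stood at 498, 749 and 742 against 362, 419 and 377 (-0.76 ± 0.15), and the glycosyltransferase UF3GT at 148, 241 and 275 against 89.8, 108 and 101 (-1.10 ± 0.21). No ap1/cal library reached the lowest Col-0 library for any of these. GSTF12, which carries anthocyanins to the vacuole, fell by 0.94 ± 0.17.

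Other flavonoid steps were lower in ap1/cal under SNP and were not called in Mock. PAL1, at the entry of phenylpropanoid metabolism, stood at 7276, 6576 and 6752 in Col-0 and at 3595, 3262 and 4347 in ap1/cal under SNP (-0.89 ± 0.10), and at 6673, 7317 and 6967 against 6995, 7354 and 6109 in Mock (-0.04 ± 0.09). The difference between treatments was called for PAL1, at -0.82 ± 0.14. Transcription factors of both branches fell, MYB12 from 183, 157 and 153 to 97, 87.9 and 79.7 (-0.89 ± 0.15) and PAP1 from 68.9, 86.5 and 101 to 21.7, 43.9 and 37.0 (-1.34 ± 0.28). TT8, MYB11 and MYB111 fell as well, by 1.32 ± 0.22, 1.82 ± 0.55 and 1.25 ± 0.31. The ap1/cal values of MYB11 were 9.29, 3.38 and 1.94, so it passed the filter through Col-0 alone and its call is not independent of the filter. Chalcone synthase, TT4, the first committed enzyme, did not, at 8098, 7825 and 7167 against 5415, 7762 and 7284 (-0.19 ± 0.12). Without ap1/cal SNP replicate 1, 12 members fell.

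**Figure D4:**
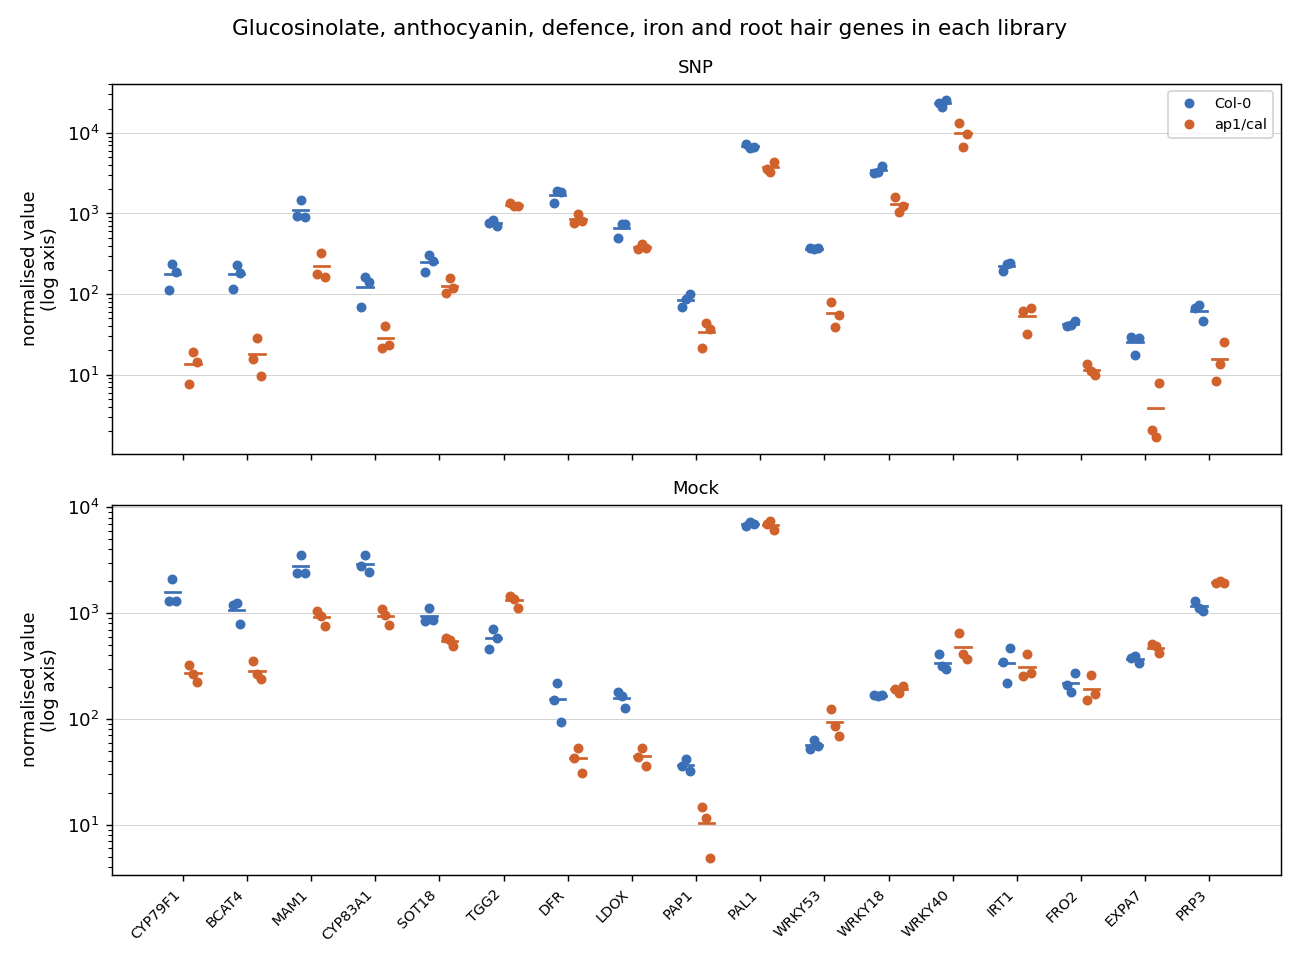
Normalised values (log axis) of 17 genes of glucosinolate, anthocyanin, defence, iron and root hair function in each SNP library (top) and each Mock library (bottom), with bars at the means of 3 libraries. Glucosinolate and late anthocyanin genes are lower in ap1/cal in both panels, except the myrosinase TGG2, which is higher in both, whereas WRKY53, WRKY18, EXPA7 and PRP3 are lower in ap1/cal in the upper panel and higher in the lower one, and the IRT1 groups overlap in Mock.

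Salicylic acid and immunity genes fell in 7 of 17 cases and none rose (median -0.65), and none of the 15 tested in both treatments was called in Mock. WRKY53, a transcription factor of senescence and defence, stood at 374, 358 and 371 in Col-0 and at 80.5, 38.9 and 54.5 in ap1/cal (-2.71 ± 0.22, adjusted p = 3.7e-05). WRKY18 stood at 3213, 3246 and 3908 against 1624, 1055 and 1228 (-1.42 ± 0.14), and its partner WRKY40 at 23472, 20829 and 25287 against 13421, 6679 and 9670 (-1.28 ± 0.20). The groups were separated, with ap1/cal replicate 2 the lowest library in each. WRKY53 and WRKY40 overlap genes on the other strand. In Mock the ap1/cal values of WRKY53 lay above those of Col-0, at 124, 86.5 and 69.3 against 52.3, 63.0 and 55.2, a difference that was not called (0.67 ± 0.21, adjusted p = 0.16), and the difference of differences was -3.35 ± 0.34.

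The effector gene PR5, a marker of salicylic acid responses, stood at 82.7, 82.4 and 109 in Col-0 and at 39.2, 18.6 and 46.7 in ap1/cal (-1.45 ± 0.32). The components upstream moved less, with the biosynthetic enzyme EDS16 at 643, 553 and 616 against 619, 522 and 611 (-0.05 ± 0.10) and the receptor NPR1 at 2206, 2056 and 2098 against 2641, 2415 and 2561 (0.26 ± 0.07). Neither was called, and the EDS16 groups overlapped. Of 16 jasmonate genes 1 rose and 3 fell (median -0.14), with 7 lower under total scaling and 2 higher without ap1/cal SNP replicate 1. The repressor genes JAZ1 and JAZ5 fell by 1.05 ± 0.09 and 1.2 ± 0.16, JAZ1 from 3710, 3130 and 3625 to 1836, 1513 and 1697, whereas JAZ10 rose from 95.9, 78.8 and 87.1 to 137, 189 and 194 (0.97 ± 0.17).

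Several genes of iron uptake fell. Of 20 iron genes 5 fell and 1 rose, with a median of 0.00, and under total scaling 8 fell and none rose. IRT1, the iron transporter of the root epidermis, stood at 193, 236 and 241 in Col-0 and at 60.9, 32.1 and 68.1 in ap1/cal (-2.10 ± 0.26, adjusted p = 0.000198). FRO2, the ferric reductase that works with it, stood at 39.8, 41 and 46.0 against 13.6, 11 and 9.87 (-1.80 ± 0.28). Their activator FRU stood at 333, 267 and 343 against 157, 195 and 159 (-0.88 ± 0.14). None of these overlapped, and none was called in Mock, where IRT1 stood at 344, 217 and 465 against 253, 415 and 271. The ferritin FER3 fell by 0.67 ± 0.10, and BTS, a ubiquitin ligase that restrains the iron deficiency response, rose from 9526, 9361 and 8156 to 12179, 14972 and 14371 (0.62 ± 0.09).

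Markers of the root were examined beside them. Of 9 tested root hair and root markers 3 fell and none rose (median -0.58, no positive estimate), with 7 lower under total scaling, and their summed values were 1825 to 2139 in Col-0 and 1469 to 1729 in ap1/cal. The part of this in the iron genes was not tested. EXPA7, a root hair expansin, stood at 29.3, 17.3 and 28.6 in Col-0 and at 2.06, 1.69 and 7.78 in ap1/cal (-2.61 ± 0.54), with ap1/cal at or near the floor. It is among the 3 called but passed the filter through Col-0 alone, so its call is not independent of the filter. PRP3, a cell wall protein of root hairs, stood at 67.2, 74.1 and 45.8 against 8.25, 13.5 and 25.3 under SNP (-2.03 ± 0.38), and at 1302, 1125 and 1059 against 1937, 1996 and 1932 in Mock, where it was called higher in ap1/cal (0.76 ± 0.09). The endodermal markers CASP1 and CASP2 had values of -0.02 ± 0.13 and -0.04 ± 0.13. The genes with the most negative differences between the treatments included 3 neighbouring lectin genes, and AT1G52070 stood at 536, 239 and 586 against 31.3, 83.6 and 34.1 under SNP and at 954, 1395 and 1078 against 1184, 1596 and 1134 in Mock.

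Seed storage and maturation transcripts were higher in ap1/cal, in all 4 tested members of a short list (median 2.08), with summed values of 77.5 to 166 in Col-0 and 267 to 667 in ap1/cal. CRA1, a cruciferin, stood at 6.75, 12.9 and 11.2 in Col-0 and at 99.1, 62.5 and 364 in ap1/cal (3.59 ± 0.54, adjusted p = 0.000647), and ap1/cal replicate 3 was the highest library in both treatments. In Mock it stood at 6.32, 2.76 and 3.29 against 23.8, 37.3 and 209 (3.57 ± 0.70). It passed the Mock filter through ap1/cal alone, so its Mock call is not independent of the filter. Of the 2 members tested in both treatments 1 was called higher in Mock. GEA6 lost its call under total scaling. Without ap1/cal SNP replicate 1 only 3 members reached the filter, all called higher. A called member therefore passed the filter only with that library, and its call may not be independent of the filter.

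The largest differences of all stood apart from the gene lists and were present in both treatments. AT5G24240, annotated as a phosphatidylinositol 4-kinase gamma-like protein, stood at 2621, 2454 and 2627 in Col-0 and at 41.4, 29.8 and 28.5 in ap1/cal, which is 6.25 ± 0.14 lower on the log2 scale (adjusted p = 1.21e-08). In Mock it was lower by 5.86 ± 0.14, from 945, 803 and 966 to 13.2, 13.5 and 17.3. MRD1 stood at 848, 858 and 832 against 22.2, 39.4 and 50.8 (-4.54 ± 0.24), and in Mock it was lower by 4.69 ± 0.34. Both overlap genes on the other strand, and 95.1% of the 75-base windows of MRD1 are shared with another gene, so its reads are uncertain. In the other direction AT1G75945, an uncharacterised gene, stood at 17.2, 4.12 and 10.3 against 219, 274 and 257 (4.62 ± 0.39), and at 0.759, 4.70 and 3.95 against 118, 143 and 194 in Mock (5.35 ± 0.43). It passed the Mock filter through ap1/cal alone, with Col-0 under or close to the floor. Its Mock call is therefore not independent of the filter, and the size of its Mock estimate depends on the value added before taking logs.

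Some large changes rest on values near the floor. The bounds given here set the mean of the higher group against the mean floor of the other, so they hold for the means and not for each library. HAK5, a high-affinity potassium transporter induced by potassium shortage, stood at 1.72, 1.65 and 0 in Col-0 and at 28.9, 23.7 and 83.6 in ap1/cal. Its mean was at least 12.3-fold higher, and ap1/cal replicate 3 made up most of that mean. AT5G55410, a lipid transfer protein-like gene, was at least 5.98-fold higher. IRT2, a relative of IRT1, stood at 22.4, 14.0 and 17.2 against 1.03, 3.38 and 0, at least 3.83-fold lower. HAK5 passed the filter through ap1/cal alone and IRT2 through Col-0 alone, so their calls are not independent of the filter. Of all genes tested 29 passed the filter through ap1/cal alone, of which 24 were called, and 106 through Col-0 alone, of which 77 were called. With a value of at least 10 in all 6 libraries, 3131 of 18497 genes were called (16.9%). AT5G36710 stood at 0, 0 and 64.1 against 69.1, 99.7 and 91.4, shares most of its sequence with another gene and is uncertain.

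The SNP and Mock comparisons share no library, so their calls can be set side by side. Among 19054 genes tested in both, 64 were called with the same sign (0.336%), which is 2.00% of the 3202 SNP calls and 32.8% of the 195 Mock calls, with 16 higher and 48 lower in both treatments. The Mock list rests on single libraries. It held 352 genes without Col-0 Mock replicate 2, 81 without Col-0 Mock replicate 3, and 65, 61 and 81 without ap1/cal Mock replicates 1, 2 and 3. The shared list held 34 genes without Col-0 Mock replicate 3, and 27, 28 and 30 without ap1/cal Mock replicates 1, 2 and 3. The 48 genes lower in both included glucosinolate genes (BAT5, SOT17, IPMI1), anthocyanin genes (DFR, LDOX, AT5MAT), the cold-regulated genes COR15A and COR15B, and QQS, a starch regulator at 196, 166 and 147 against 47.9, 100 and 50.4 under SNP (-1.42 ± 0.26). These examples were chosen after their values were seen, as were those of the next paragraph.

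The calls had opposite signs in 37 genes. Of these 22 were higher in ap1/cal under SNP and lower in Mock, with 7 small heat shock protein genes, HSP70 and AT5G48570 among them. APX2, a heat-induced ascorbate peroxidase, stood at 839, 973 and 648 against 1707, 3185 and 2118 under SNP (1.48 ± 0.21) and at 25.8, 16.0 and 14.2 against 0, 3.10 and 1.95 in Mock. GPT2, a plastid glucose-6-phosphate transporter, stood at 2362, 2208 and 1887 against 3682, 4362 and 4399 under SNP and at 226, 88.4 and 112 against 33.5, 31.9 and 32.2 in Mock. The order of the genotypes was reversed without overlap in both genes. APX2, like HSP21, passed the Mock filter through Col-0 alone, and its ap1/cal Mock values were under or close to the floor. Its Mock call is therefore not independent of the filter. The other 15 were lower under SNP and higher in Mock, and they held cell wall protein genes such as AGP3 (-2.21 ± 0.37 under SNP and 0.68 in Mock), PRP3, EXT12 and HRGP1, with the immunity gene ACD6 at 499, 353 and 438 against 239, 62.2 and 142 under SNP (-1.72 ± 0.38).

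**Figure D5:**
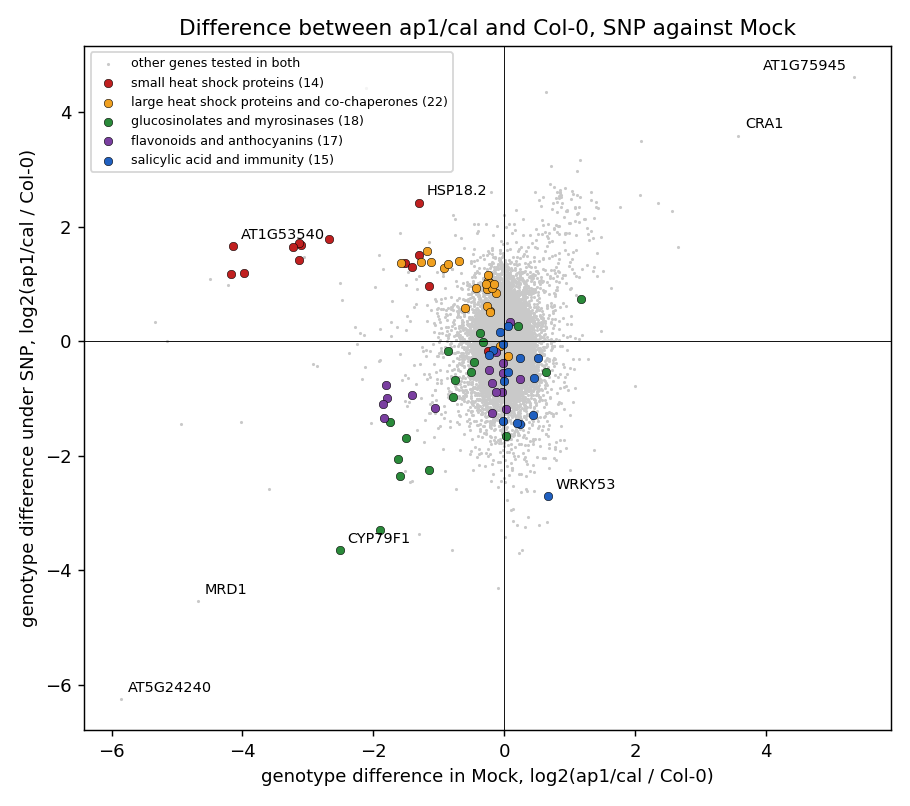
Log2 difference between ap1/cal and Col-0 under SNP (vertical) against that in Mock (horizontal) for the 19054 genes tested in both, with 5 gene lists coloured and the number of plotted members in brackets. Most small heat shock proteins lie in the upper left quadrant, except AT4G21870 with -0.17 under SNP, and the called glucosinolate genes lie in the lower left, except TGG2 in the upper right and IMS2 at 0.03 in Mock.

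Of 3101 genes called under SNP and not in Mock, 52.6% had the same sign in Mock, and the difference of the genotype differences was called for 1990 of them (64.2%). Over all 12 libraries that difference was called for 3009 of 20635 genes (14.6%), 1638 more positive under SNP and 1371 more negative. Total scaling gave 873 and 2795, and upper-quartile scaling 1118 and 2113, so the more frequent direction depended on the scaling. Over the genes, a count that is not a number of replicates, the log2 differences in both treatments had a Pearson correlation of 0.119 and a Spearman correlation of 0.059. The SD of the log2 difference over genes was 0.56 under SNP and 0.31 in Mock.

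The genes at the centre of the study were not called. The Argonaute gene AGO4, of the RNA-directed DNA methylation pathway, stood at 784, 1004 and 957 in Col-0 and at 837, 931 and 856 in ap1/cal (-0.06, 95% interval -0.28 to 0.17). The cytokinin response regulator gene ARR7 stood at 248, 234 and 259 against 245, 252 and 212 (-0.07, interval -0.32 to 0.18). Both pairs of groups overlapped, and the intervals leave out a 1.5-fold change in either direction. Under total scaling AGO4 was at -0.33 (adjusted p = 0.0271 in limma) and ARR7 at -0.34 (adjusted p = 0.036), beyond these intervals and under the fold threshold. WUS, CLV3, UFO and CUC2 did not reach the filter in both tables. Of the nitric oxide genes, the nitrate reductases NIA1 and NIA2 had differences of 0.25 (interval -0.003 to 0.51) and 0.27 (0.07 to 0.48), which turned to -0.02 and -0.00093 under total scaling. NOA1 had a difference of -0.15 (-0.35 to 0.04), and HB1, a haemoglobin that scavenges nitric oxide, stood at 2345, 1834 and 2143 against 1697, 1692 and 1739 (-0.29, interval -0.49 to -0.10) with no overlap and under the fold threshold.

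Few members of the lists around these genes were called, beside 17.3% of all genes. Of 28 RNA-directed DNA methylation and DNA methylation genes none was called (median 0.07), and the member with the largest estimate was the polymerase subunit NRPD1A, at 182, 205 and 176 against 226, 340 and 289 (0.58 ± 0.15). Of 9 type-A response regulators 1 rose, ARR4 (0.72 ± 0.09), which lost its call under total scaling. Of 24 floral genes 1 was called, SEP4, from 129, 136 and 135 to 88.4, 55.5 and 59.8 (-0.99 ± 0.19). Of 20 shoot meristem genes 1 was called, KNAT1, a homeobox gene of the meristem, from 150, 167 and 179 to 101, 91.3 and 79.7 (-0.86 ± 0.15). FLC, the flowering repressor, stood at 369, 328 and 318 against 282, 219 and 212 (-0.52 ± 0.13), under the fold threshold under SNP and called lower in Mock (-0.67 ± 0.11). None of 16 cell division genes and none of 6 genes of cyanide detoxification and cysteine synthesis was called, with medians of -0.18 and 0.06. These counts depended on the scaling, and under total scaling 7 floral, 5 meristem, 3 type-A, 2 RNA-directed DNA methylation, 2 cell division and 1 cyanide gene were lower and none was higher. Without ap1/cal SNP replicate 1, 4 floral, 2 meristem, 1 type-A and 1 cyanide gene were lower and 2 RNA-directed DNA methylation genes were higher. Of 14 clock genes PRR7 rose (0.76 ± 0.07) and LHY fell (-0.75 ± 0.08), and PRR7 lost its call under total scaling.

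The neighbourhoods of the mutated loci did not stand out. In the block of locus numbers that holds AP1, 14 of 79 tested genes were called under SNP (17.7%), and in that of CAL 10 of 69 (14.5%), near the 17.3% of all genes, and none was called in Mock in either. Near AP1 they included NAP, described above, and the glutathione transferase GSTU12, from 520, 313 and 414 to 187, 65.9 and 152 (-1.72 ± 0.33). Near CAL they included BGLU40, a beta-glucosidase, from 981, 950 and 965 to 678, 502 and 630 (-0.69 ± 0.11), and AT1G26790, a Dof-type zinc finger gene, from 99.9, 98.0 and 101 to 40.2, 6.76 and 37.0 (-2.13 ± 0.53). ap1/cal replicate 2 was the lowest library for each of these 3.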

How the data were processed

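Poly(A) RNA of 12 seedling libraries (2 genotypes, Mock or 1 mM SNP, 3 replicates each) had been sequenced from directional libraries. The submitters' processing notes name FastQC, STAR, DESeq2 and the build TAIR10, without versions, and the study's methods name DEGseq. The tool that counted reads and its strand setting are not given in the sources used here. The deposited values are described as raw counts, but they are a signal, estimated reads divided by 1 size factor per library, which the authors made separately in each table of 1 genotype. At a tolerance of 0.01 only part of the values under 50 were whole, so no count test was run.

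The 6 SNP libraries were rescaled together by the median of ratios. Genes that reached a value of 10 in 3 or more libraries were tested on log2(value + 1) with limma 3.58.1 in R 4.3.3 (moderated by a trend, two-sided, Benjamini-Hochberg over all genes tested). The 6 Mock libraries were treated likewise, and the difference of the genotype differences was fitted over all 12. Calls required an adjusted p under 0.05 together with a 1.5-fold difference. In simulated data for the SNP comparison (19571 genes), 25 of 50 genes changed 1.5-fold were called and 47 of 50 at 2-fold. At 4-fold 50 of 50 and at 8-fold 49 of 50 were called, with 3 unchanged genes called. The simulation gave all genes the same dispersion and changed few of them, evenly up and down. It held no shift between scalings like that of the real data. The 3 unchanged calls are therefore no error rate of the real calls. Fold bounds set the mean of the higher group against a floor of 3 estimated reads, which covers counting error only.

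The members and gene lists were chosen with earlier results of these data known. Named genes were the largest changes and smallest p-values in each direction, the extreme differences between treatments, the study's genes, up to 4 called members of each list and called genes near AP1 and CAL. Other list members were named after their values were seen. Names, products and promoters came from RefSeq (TAIR10.1), with 21896 of 22054 genes matched. Sequence shared between genes was measured in windows of 75 bases. Alternatives in scaling, filter, pseudocount, model and libraries were tried.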

Additional observations from a re-analysis of the deposited data

Results flagged for a closer look

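The genotype difference under SNP differed from that in Mock, by a test of the difference itself, in 3009 genes, and the named genes among them are given here as the SNP minus Mock difference on the log2 scale. Chaperone and HSF genes were more positive under SNP: AT1G53540 by 5.83, HSP17.6II by 5.36, HSP17.6A by 5.19, HSP23.6-MITO by 4.88, ATHSP22.0 by 4.49, HSP18.2 by 3.75, AT1G52560 by 3.24, HSFA2 by 3.14, AT5G48570 by 2.79, HSP101 by 2.67, HSP70 by 2.52, Hop3 by 2.12, HSF4 by 1.19 and HSFA1D by 1.14. The mitochondrial response genes AOX1D, UGT74E2 and AT2G21640 were more positive by 4.37, 3.55 and 1.85. The alcohol dehydrogenase ELI3-2 was more positive by 5.61, the sucrose transporter SUC7 by 5.22, HAK5 by 3.75, AT3G28170 by 2.37 and DIN2 by 0.87. For ELI3-2, SUC7 and AOX1D (ap1/cal Mock) and for HAK5 (Col-0 SNP) a whole group was under or close to the floor of 3 estimated reads. These estimates therefore depend on the added value of 1 and are no bounds.

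Root and iron genes were more negative under SNP. The lectin genes AT1G52050, AT1G52060 and AT1G52070 had differences of -3.90, -3.54 and -3.38, IRT2 of -3.80, EXPA7 of -2.93, PRP3 of -2.76, EXPA18 of -2.16, IRT1 of -1.98, FRO2 of -1.58 and FRU of -0.86. Of the defence genes WRKY53 had -3.35, WRKY38 -3.21, PR5 -1.66 and WRKY18 -1.60, and BCAT4 of the glucosinolate pathway had -1.38. Other genes were AT5G24070 at -3.90, AT5G60530 at -3.71, AT1G50060 at -3.42, AT5G54370 at -3.40, PUP8 at -3.15, AT3G12910 at -2.88, CYP716A2 at -2.82 and AK3 at -2.04, the last with 59.3% of its windows shared. The same limit holds for IRT2, CYP716A2 and AK3 (ap1/cal SNP), PUP8 (ap1/cal Mock) and AT3G12910 (both Mock groups).

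Genes present in only 1 of the tables could not enter the comparison, and some had a value of at least 10 in all 3 SNP libraries. In the Col-0 table the lowest SNP values of such genes were 59.0 for AT4G22030, 48.9 for SULTR1;3 and 11.6 for ERF14. In the ap1/cal table they were 273 for AT1G64795, 20.5 for AT4G38030, 19.5 for AT3G10430, 14.9 for AT2G34317, 14.9 for AT5G51105, 13.3 for AT5G41320 and 12.8 for AT1G72760. With 3 libraries in each group, none was tested for an outlying sample.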

How the results depend on the processing

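The 3387 calls under SNP became 7867 without the fold threshold and 673 when the fold itself was tested (treat). The 3009 calls of the difference became 4845 and 348. The 206 Mock calls became 103 without the trend and 13 with treat. The 64 genes called with the same sign in both treatments became 27 with a minimum value of 50, 36 without the trend, 109 without the fold threshold and 7 with treat. Leaving out 1 library at a time gave 2680 to 3606 calls under SNP, 61 to 352 in Mock, 2394 to 3430 for the difference and 27 to 67 shared. Directions turned for NIA1 (-0.021) and NIA2 (-0.00093) under total scaling, for AGO4 (0.012) without Col-0 SNP replicate 2 and for ARR7 (0.0098) without ap1/cal SNP replicate 3. Over all removals of 1 library AGO4 ranged from -0.16 to 0.012 and ARR7 from -0.11 to 0.0098, and under total scaling they were at -0.33 and -0.34. The cause was not tested. With a replicate block there were 3339 calls under SNP, 227 in Mock, 2935 for the difference and 65 shared, and 3275 of the SNP calls were kept. Pairing was examined on log2 values after the mean of its group was taken off each gene. These deviations had correlations of -0.0303, 0.022 and 0.00481 between same-numbered SNP libraries, so the numbers did not pair them. Same-numbered Mock libraries had -0.222, 0.228 and -0.00216. The deviations within a group cancel out, so these correlations are not independent of each other. In Mock ap1/cal replicate 3 had 0.342 with Col-0 replicate 1 and -0.346 with Col-0 replicate 2, so Mock libraries shared a pattern across the genotypes. Its source was not tested, and the Mock and difference tests rest on these libraries. Of 2333 values of 135 named genes under the alternatives 2168 kept direction and call, 142 lost and 19 gained a call, and 4 turned. Normalisation separately by genotype, 3 libraries a group and the unstated strand of counting limit small differences and overlapping genes.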

Other observations

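Plant defensin genes were in the Col-0 table alone and entered no comparison. The values of PDF1.2, PDF1.2b, PDF1.2c and PDF1.3, antifungal peptides induced by jasmonate and ethylene, were 6.58 to 99.3 in Col-0 Mock and 0 to 1.66 in Col-0 SNP. Their levels in ap1/cal were not analysed here.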
